A study of Mus musculus with 6 samples.

Results

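The matrix metalloproteinases examined were Mmp2, Mmp3, Mmp7, Mmp9, Mmp10, Mmp11, Mmp12, Mmp13, Mmp14 and Mmp19, 10 genes taken as every probe set of the deposited table whose single platform symbol was one of them. They are 10 of the 18193 genes named on the array and had 15 of the 45037 probe sets tested. RNA came from 6 tumours that grew from GLMT1 cells (the name stands for GRS/A Lung Metastasis Tumor 1), which had been placed beneath the back skin of male GRS/A mice. There were 3 tumours from TNKO hosts, GRS/A-TgH(TnC) mice deficient in tenascin-C, and 3 from WT hosts, GRS/A mice with intact tenascin-C, all described as biological replicates. Host age is given as 8 weeks in the design and as 10 weeks for the samples. The inoculated GLMT1 cells were the same in both groups and are not described as lacking tenascin-C, so the deficiency lay in the host. The comparison bears on how tumour expression differed when the host lacked tenascin-C. The tissue of origin of the line is not stated. Of 12 epithelial keratin and junction markers 8 were brighter than the median probe set, as were 12 of 12 fibroblast, 10 of 12 macrophage and 6 of 8 endothelial markers. The same held for 5 of 10 neutrophil, 4 of 11 hair and epidermis, 4 of 10 skeletal muscle and 4 of 7 adipocyte markers. No origin is read from these counts.

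Matrix metalloproteinases are zinc-dependent endopeptidases that are made as inactive proenzymes and cleave collagens, fibronectin, laminin and other matrix proteins, tenascin-C among them. Proteolytic removal of the propeptide activates them, and tissue inhibitors (TIMPs) block them. In tumours much of their RNA is known to come from stromal fibroblasts and leukocytes rather than from cancer cells. In rabbit synovial fibroblasts, tenascin-C mixed with fibronectin is known to induce collagenase and stromelysin.

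Values are deposited log2 units of 1-colour Affymetrix arrays and for most probe sets are extremely compressed between arrays. The median probe set spanned 5.46 millionths of a unit over the 6 arrays, so differences cannot be read as folds and are also given in residual SDs, that is, relative to the within-group spread of the same probe set. A level depends on the probes, so levels of different genes are not set against each other. Hybridisation control probe sets, which match no mouse RNA, were higher in TNKO tumours in 18 of 18. They differed by 0.173 to 61.4 millionths of a unit, and the 9 MMP probe sets of narrow range described further on differed by sizes within that span. Of these the Mmp7, Mmp9 and Mmp11 probe sets were higher in TNKO tumours, as the controls were, and the Mmp14 and Mmp19 probe sets lower. The part of hybridisation in the narrow probe sets was not tested. Tnc itself stood at 8.797, 8.822 and 8.832 in TNKO tumours, against 9.014, 9.043 and 8.995 in WT tumours, in its brighter probe set. The groups did not overlap, and the adjusted p by limma was 0.0537. TNKO tumour 3 led in 7 of 11 hair and epidermis markers. WT tumour 3 led in the other 4, the epidermal genes Krt10, Krt1, Lor and Flg, which were lower in the TNKO mean. TNKO tumour 1 was the lowest in 9 of 10 skeletal muscle markers. Some of these markers spanned whole units. Krtap8-1, a hair gene, stood at 12.6 in TNKO tumour 3, against 5.95 to 6.15 in the other tumours, and the muscle gene Myh1 spanned 3.28 units.

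None of the 15 MMP probe sets passed the test across all probe sets (limma, Benjamini-Hochberg adjusted p under 0.05), which called 79 of 45037 probe sets (0.175%). At an unadjusted p under 0.05, limma found 2 of the 15 lower in TNKO tumours and 0 higher, against 10.8% of all probe sets lower and 9.53% higher. Those 2 were Mmp3 and the dimmest of 3 Mmp14 probe sets. In the same 2 probe sets all 3 TNKO values lay below all 3 WT values, as they did in 13.8% of all probe sets. In 0 of the 15 did all TNKO values lie above, against 14.2% of all. A share of 2 in 15 is close to the background. Of the 15 probe sets 8 were lower and 7 higher in the means, against 45.5% lower over all probe sets, and the median difference was -0.50 residual SDs, against 0.17 over all. The 10 brightest probe sets, 1 for each gene, split into 5 lower and 5 higher.

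Several of these genes ranged far between tumours. In 6 of the 15 probe sets (40.0%) the values spanned at least 0.001 units, against 790 of 45037 (1.75%) overall and 2.49% of probe sets at or above the 80th percentile of brightness. The 6 belonged to Mmp2, Mmp3, Mmp10, Mmp12 and Mmp13, and each lay at or above the 99th percentile of ranges (99.0 to 99.4). The other 9, of Mmp7, Mmp9, Mmp11, Mmp14 and Mmp19, spanned 3.83 to 72.5 millionths. Read from the brightest probe set of each gene, the share was 5 of the 10 members, against 2.58% of all genes. It was 0 of 8 other MMP genes and 0 of 8 endothelial markers. A wide range was not particular to MMP genes, since 10 of 10 skeletal muscle, 7 of 7 adipocyte, 7 of 11 hair and epidermis and 4 of 12 fibroblast markers also reached 0.001 units. Members and lists were chosen with earlier results of these data known, so the share of wide ranges is given as a description only.

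**Figure D1:**
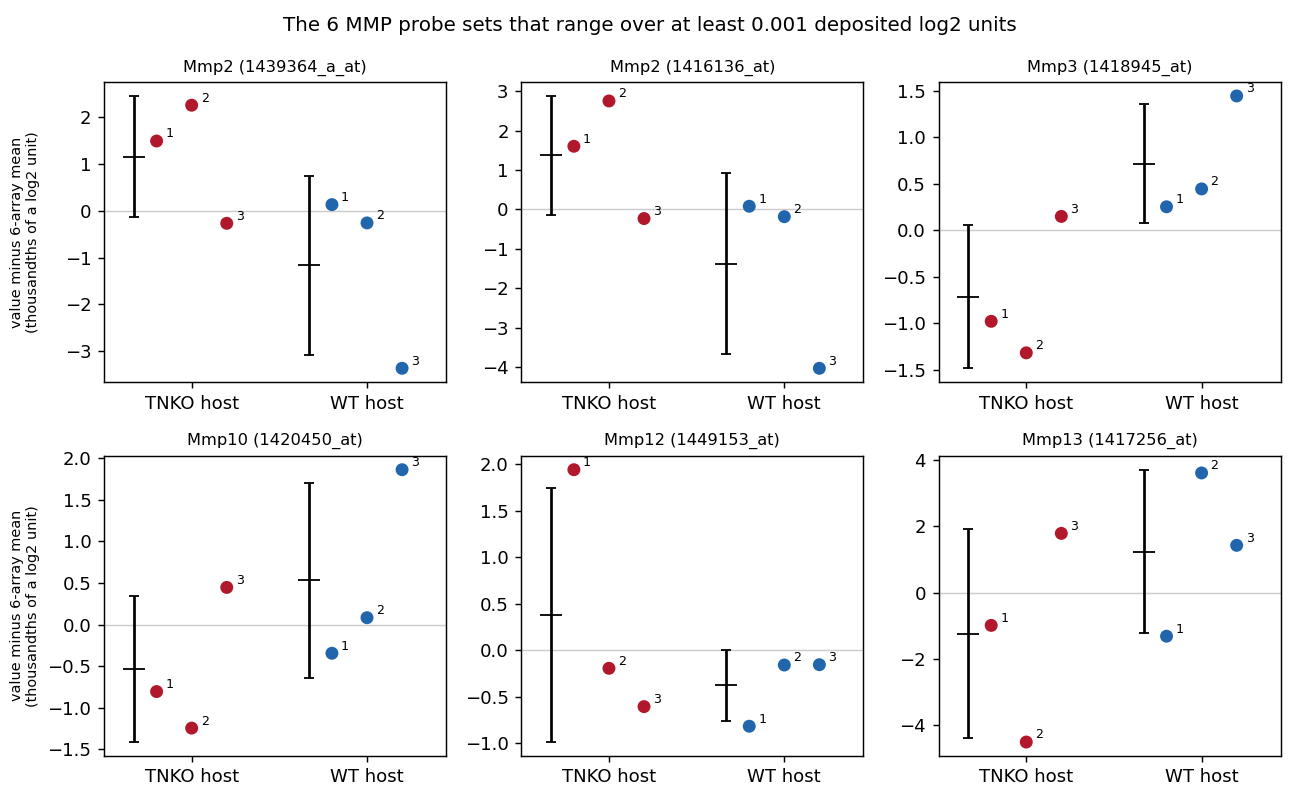
Value of each array minus the mean of the 6 arrays, in thousandths of a deposited log2 unit, for the 6 probe sets that range over at least 0.001 units; points are tumours with their replicate number (TNKO hosts red, WT hosts blue), and bars show the group mean with its SD (n = 3). Only in Mmp3, among these 6, do all 3 TNKO tumours lie below all 3 WT tumours, and WT tumour 3 is at the end of the range in Mmp2, Mmp3 and Mmp10.

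Mmp3 and Mmp10 encode stromelysin-1 and stromelysin-2, broad-range proteinases that also activate other pro-MMPs. Mmp3 stood at 11.04459, 11.04426 and 11.04572 in TNKO tumours, against 11.04582, 11.04602 and 11.04702 in WT tumours. All TNKO values were below all WT values, with TNKO tumour 3 and WT tumour 1 the closest across the groups. The group means were 11.04486 ± 0.00077 in TNKO tumours and 11.04629 ± 0.00064 in WT tumours (SD, n = 3 each). The difference of -0.00143 (SE 0.000539) amounted to -2.02 residual SDs, with an unadjusted p of 0.0496 and an adjusted p of 0.245 by limma, and so did not pass. Mmp10 stood at 9.33388, 9.33344 and 9.33513 in TNKO tumours, against 9.33434, 9.33477 and 9.33654 in WT tumours. TNKO tumours 1 and 2 were the 2 lowest arrays and WT tumour 3 the highest, but TNKO tumour 3 lay above WT tumours 1 and 2, so the groups overlapped. The difference was -0.00107 (SE 0.000789), or -1.03 residual SDs (adjusted p = 0.513 by limma).

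Mmp13 encodes collagenase-3, the main interstitial collagenase of the mouse. It had the widest range of the 15, with 10.46065, 10.45713 and 10.46343 in TNKO tumours, against 10.46032, 10.46525 and 10.46307 in WT tumours. TNKO tumour 2 was the lowest array, as in Mmp3 and Mmp10, and WT tumour 2 the highest, while TNKO tumour 3 exceeded 2 WT tumours. The difference of -0.00248 (SE 0.00216) was -0.88 residual SDs (adjusted p = 0.583 by limma). Without TNKO tumour 2 it was -0.00084 (adjusted p = 0.888 by limma), and without WT tumour 2 it was -0.00129 (adjusted p = 0.833 by limma).

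Mmp3, Mmp10 and Mmp13 belong with Mmp7 and Mmp12 to a run of neighbouring MMP genes on mouse chromosome 9. In RefSeq (GRCm38.p6) the order of protein-coding genes is Mmp13, Mmp12, Mmp1b, Mmp3, Mmp1a, Mmp10, Mmp8, Mmp27, Mmp20 and Mmp7, with no other protein-coding gene between. Several promoters of this run are known to respond to AP-1, the Fos and Jun transcription factors, through a site close to the start. Promoter sequences were at hand from RefSeq for 7 of the 10 genes, Mmp3, Mmp7, Mmp10, Mmp11, Mmp12, Mmp13 and Mmp14. The letters TGAGTCA, or TGACTCA, which is the same site on the other strand, occurred between 250 bases before and 50 after a start in 5 of these genes, all of the chromosome 9 run. Of all genes with such a window 5.95% held it (5.2% of all windows). It began 46 bases before the start in Mmp3, 63 in Mmp10 and 35 in Mmp13. In Mmp7 it began 63 bases before the first of 2 listed starts, and in Mmp12 44 before the second of 2. It was not found in the other window of Mmp7 and of Mmp12, nor in the windows of Mmp11 and Mmp14. TATAAA, or TTTATA on the other strand, was found in windows of the same 5 genes, against 15.7% of all genes (13.6% of all windows), and the AP-1 letters share no base with it. The windows of Mmp3, Mmp10 and Mmp13 held 40%, 37.7% and 43.7% G and C, against 67.0% in Mmp11 and 56.0% in Mmp14. The 120 bases before the start are shown for Mmp3, Mmp10 and Mmp13, which shared their lowest array, for the dim Mmp7, which carries the same letters, and for Mmp14, which does not; capitals mark the AP-1 letters.
Mmp3: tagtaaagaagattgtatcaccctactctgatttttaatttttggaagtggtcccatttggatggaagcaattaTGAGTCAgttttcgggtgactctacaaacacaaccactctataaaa
Mmp10: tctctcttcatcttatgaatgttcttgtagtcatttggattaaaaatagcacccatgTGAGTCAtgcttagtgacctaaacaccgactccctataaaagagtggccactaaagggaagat
Mmp13: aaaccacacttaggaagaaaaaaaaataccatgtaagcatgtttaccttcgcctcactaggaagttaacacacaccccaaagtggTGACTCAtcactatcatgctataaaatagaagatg
Mmp7: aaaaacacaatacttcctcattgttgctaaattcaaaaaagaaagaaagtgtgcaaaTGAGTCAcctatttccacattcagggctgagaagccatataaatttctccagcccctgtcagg
Mmp14: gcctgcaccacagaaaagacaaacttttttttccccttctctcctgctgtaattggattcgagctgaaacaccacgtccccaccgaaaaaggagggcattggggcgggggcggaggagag
These lie on the plus strand of GRCm38.p6 at chr9:7445702-7445821 (Mmp3), chr9:7502222-7502341 (Mmp10), chr9:7272394-7272513 (Mmp13), chr9:7691970-7692089 (Mmp7) and chr14:54431478-54431597 (Mmp14). A match of letters describes the window and is not a measured binding site.

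Mmp7 encodes matrilysin, a small epithelial enzyme without the hemopexin domain that most of the family has. Although 1 of its 2 windows holds the same letters, its single probe set was dim and spanned only 4.59 millionths of a unit, less than the median probe set. Relative to the mean of the 6 arrays it stood at -1.01, -0.67 and 3.1 millionths in TNKO tumours, against -1.5, -0.35 and 0.42 millionths in WT tumours. TNKO tumour 3 was the highest array and WT tumour 1 the lowest, and the groups overlapped (adjusted p = 0.753 by limma).

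Mmp12, the macrophage metalloelastase, also lies in the chromosome 9 run but did not follow the order of Mmp3 and Mmp10. It stood at 8.49601, 8.49388 and 8.49346 in TNKO tumours, against 8.49325, 8.49391 and 8.49391 in WT tumours. TNKO tumour 1 alone was high, and the other 5 tumours lay within 8.49325 to 8.49391. The difference of 0.00076 (SE 0.000767, 0.76 residual SDs, adjusted p = 0.64 by limma) was therefore carried by 1 tumour. Without TNKO tumour 1 the sign turned, to -2.31e-05. Of 12 macrophage markers 1, Lyz2, was higher at an unadjusted p under 0.05 (unadjusted p = 0.0476, adjusted p = 0.241 by limma), against 1818 of 18193 genes. The summed values of the 12 ran from 108.6112 to 108.612 in TNKO tumours, against 108.6065 to 108.6111 in WT tumours. The sum was carried by 1 gene, the mannose receptor gene Mrc1, which spanned 0.0053 of the 0.00551 units of its range; without Mrc1 the groups overlapped, at 100.09569 to 100.09591 in TNKO tumours and 100.09554 to 100.09584 in WT tumours. Of the 12 markers 3 were highest in TNKO tumour 1 and 4 in WT tumour 1, the lowest array for Mmp12. In the means 4 of the 12 were lower in TNKO tumours, and 11 under each of the other scalings, quantile normalization and subtraction of medians. Their part in the level of Mmp12 was not tested.

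Mmp2 and Mmp9 encode gelatinases A and B, which digest denatured collagen and basement membrane collagen. The brighter Mmp2 probe set, of 2, stood at 10.32460, 10.32537 and 10.32285 in TNKO tumours, against 10.32325, 10.32285 and 10.31975 in WT tumours. WT tumour 3 was far the lowest and TNKO tumours 1 and 2 the highest, while TNKO tumour 3 lay among the WT tumours, so the groups overlapped. The means were 10.32427 ± 0.00129 in TNKO tumours and 10.32195 ± 0.00192 in WT tumours (SD, n = 3 each). They differed by 0.00233 (SE 0.00125, 1.42 residual SDs, adjusted p = 0.379 by limma). The other probe set had the same rank in every array and differed by 0.00275 (SE 0.00148), also 1.42 residual SDs. Without WT tumour 3 the difference of the brighter probe set was 0.00122 (adjusted p = 0.595).

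Mmp9 was narrow in range and did not separate the hosts. In its brighter probe set the arrays stood at 16.98, -7.84 and -4.07 millionths from their mean in TNKO tumours, against -15.28, 18.34 and -8.13 millionths in WT tumours. WT tumour 2 and TNKO tumour 1 were the 2 highest arrays and WT tumour 1 the lowest. In the other probe set TNKO tumour 1 was the highest, WT tumour 2 came next and WT tumour 1 was again the lowest. Their differences were 3.38 and 2.35 millionths (adjusted p = 0.913 and 0.855 by limma), and both turned negative with quantile normalization and with array medians subtracted. Neutrophils are a known source of gelatinase B. Of 10 neutrophil markers 10 were higher in the TNKO mean, 3 at an unadjusted p under 0.05 by limma, against 10475 and 1818 of 18193 genes. Their summed values were 68.1394 to 68.1524 in TNKO tumours and 68.1297 to 68.1366 in WT tumours. Of the 0.0227 units that this sum spanned, Lcn2 alone spanned 0.02, and without it the sums were 60.60586 to 60.60905 in TNKO tumours and 60.60547 to 60.6063 in WT tumours, which overlap. After quantile normalization 7 of these 10 were lower, and after subtraction of medians 8; those scalings lowered 97.7% and 98.7% of all genes. In these bulk samples fewer cells of a type and less RNA per cell cannot be told apart.

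**Figure D2:**
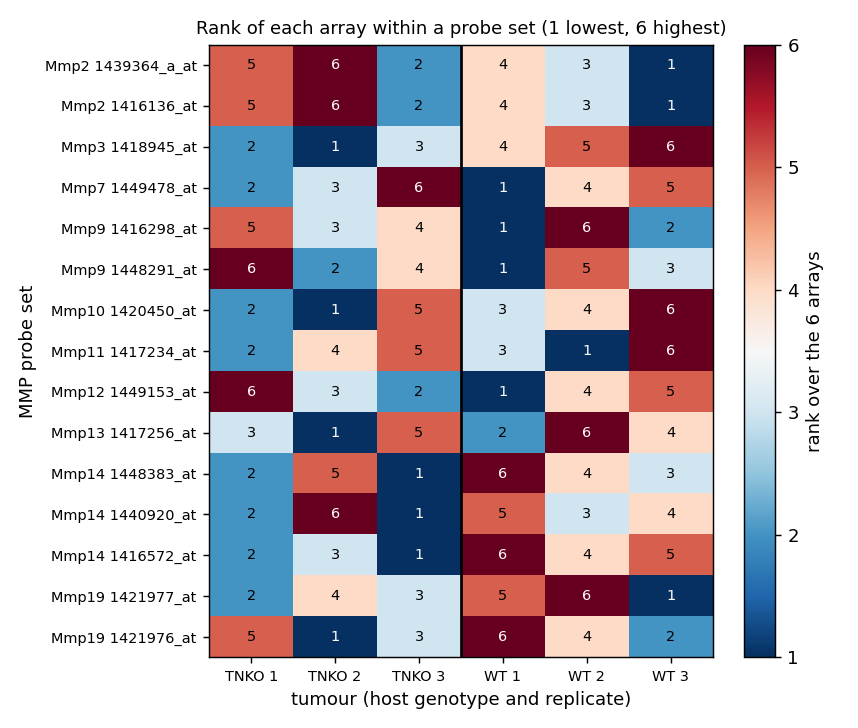
Rank of each of the 6 arrays (1 lowest, 6 highest) within each of the 15 MMP probe sets, with TNKO tumours left of the line and WT tumours right of it. The 2 Mmp2 probe sets share 1 order, Mmp10 has exactly the reverse of it, and the 3 Mmp14 probe sets share TNKO tumour 3 as the lowest array and TNKO tumour 1 as the next.

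Mmp14 encodes a membrane-anchored MMP that activates pro-Mmp2 at the cell surface. It had 3 probe sets. The dimmest lay -20.4, -3.49 and -27.75 millionths from its mean in TNKO tumours, against 18.64, 14.43 and 18.58 millionths in WT tumours. The groups did not overlap. The difference of -34.43 millionths (SE 6.84) was -3.84 residual SDs, the largest of the 15 in those terms, with an unadjusted p of 0.00509 and an adjusted p of 0.112 by limma. It did not pass. Over the alternatives its adjusted p by limma ran from 0.0843 to 0.99, the latter with array medians subtracted, and was at most 0.588 in the others. The brightest probe set differed by -1.05 millionths (SE 1.19, adjusted p = 0.682 by limma) and the middle one by -5.7 millionths (SE 7.85, adjusted p = 0.743 by limma). In both, TNKO tumour 3 was the lowest array and TNKO tumour 2 stood among the 2 highest, so the lower value of all 3 TNKO tumours was seen in 1 of 3 probe sets.

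Mmp11 encodes stromelysin-3, known from the stroma of carcinomas and activated inside the cell by furin. It stood at -2.05, -0.04 and 3.81 millionths from its mean in TNKO tumours, against -2.02, -8.36 and 8.66 millionths in WT tumours. Both the highest and the lowest array were WT tumours, and the difference was 1.15 millionths (SE 4.92, adjusted p = 0.93 by limma). Mmp19, an MMP of broad tissue distribution, had 2 probe sets that disagreed on the order of the arrays. They differed by -3.31 millionths (SE 5.07, adjusted p = 0.771 by limma) and -21.25 millionths (SE 20.8, adjusted p = 0.628 by limma). The second was set by WT tumour 1, at 54.2 millionths above the mean, and without that tumour its sign turned.

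**Figure D3:**
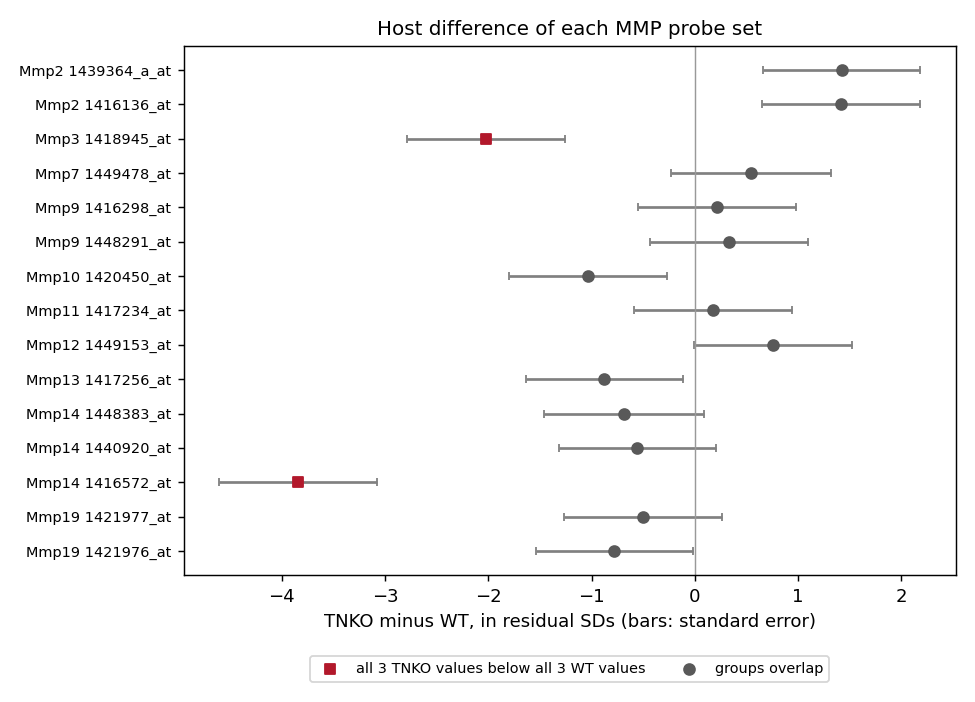
TNKO minus WT difference of each MMP probe set in residual SDs, with bars for the standard error (n = 3 tumours per host). Red squares mark the 2 probe sets, of Mmp3 and Mmp14, in which all 3 TNKO values lay below all 3 WT values, and grey circles mark overlapping groups.

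The members were then set against each other over the 6 tumours, 45 pairs of brightest probe sets in all, with exact permutation tests of Pearson's r and Spearman's rho. Mmp2 and Mmp10 had r = -0.986 (exact permutation p = 0.0014, adjusted p = 0.063) and rho = -1.0 (exact permutation p = 0.0028, adjusted p = 0.126), the smallest p that 6 arrays can give for each. Without TNKO tumour 2 and WT tumour 3, the arrays farthest from the median of Mmp2, r was -0.901. Mmp2 and Mmp3 had r = -0.965 (exact permutation p = 0.0056, adjusted p = 0.104) and rho = -0.829 (exact permutation p = 0.0583, adjusted p = 0.762), and r = -0.963 without the same 2 arrays. Mmp3 and Mmp10 had r = 0.932 (exact permutation p = 0.0069, adjusted p = 0.104) and rho = 0.829 (exact permutation p = 0.0583, adjusted p = 0.762), and r = 0.752 without them. No pair passed adjustment over the 45, and 5 had an unadjusted permutation p under 0.05 for r. With 6 arrays 1 pair alone could not pass, since Mmp2 and Mmp10 had the smallest possible p and did not. The relations were also seen within the hosts. With each value taken as its deviation from its own group mean, r was -0.996 for Mmp2 and Mmp10, -0.959 for Mmp2 and Mmp3 and 0.973 for Mmp3 and Mmp10. Mmp13 was less close, with r = -0.647 to Mmp2, 0.727 to Mmp3 and 0.675 to Mmp10.

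**Figure D4:**
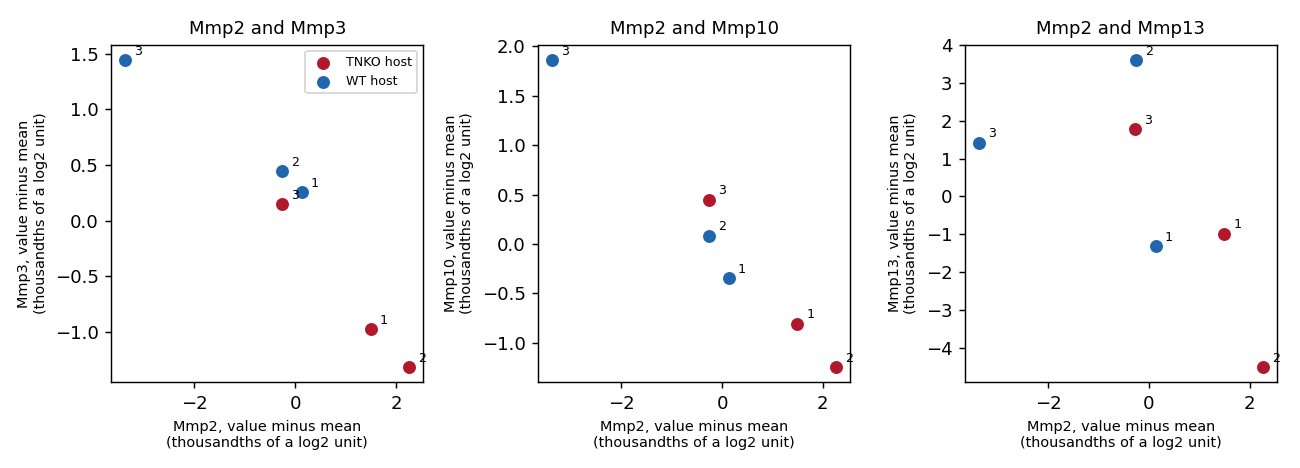
Mmp3, Mmp10 and Mmp13 (vertical axes) against Mmp2 (horizontal axes), each as the value minus the mean of the 6 arrays in thousandths of a deposited log2 unit, 1 point per tumour with its replicate number (TNKO hosts red, WT hosts blue). TNKO tumour 2 and WT tumour 3 lie at the 2 ends of Mmp2, and Mmp3 and Mmp10 run from high to low across it.

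Mmp2 and Mmp13 were the members with the widest range, and the genes nearest to each in pattern were sought among 469 other genes that spanned at least 0.001 units. The 5 nearest to Mmp2 were Fbn2, a fibrillin (r = 0.999), Fstl1, a secreted glycoprotein of mesenchymal cells (r = 0.998), Lox, the collagen cross-linking lysyl oxidase (r = 0.997), Fap, a fibroblast activation protease (r = 0.996), and Plagl1, a zinc finger transcription factor (r = 0.988). In all, 29 genes exceeded 0.95 with Mmp2. Of 12 fibroblast markers 10 were higher in the TNKO mean and WT tumour 3 was the lowest array in 9. Their summed values ran from 122.4573 to 122.4871 in TNKO tumours, against 122.4021 to 122.4797 in WT tumours. Dpt and Lum spanned the most, 0.052 and 0.0237 of the 0.085 units of that sum. After quantile normalization 6 of the 12 were lower in TNKO tumours, and after subtraction of medians 8. The low place of WT tumour 3 was not limited to fibroblast markers, since it was also the lowest array in 7 of 8 endothelial and 7 of 7 adipocyte markers. The 5 genes nearest to Mmp13 were Eno3, a muscle enolase (r = 0.931), Cryab, a small heat shock protein of muscle and lens (r = 0.927), Ckmt2, a mitochondrial creatine kinase of muscle (r = 0.909), and the troponins Tnnt1 (r = 0.901) and Tnnc1 (r = 0.901). None exceeded 0.95. Summed skeletal muscle markers ran from 64.8974 to 70.0851 in TNKO tumours and from 68.9715 to 70.3665 in WT tumours, with 10 of 10 lower in the TNKO mean and 0 at an unadjusted p under 0.05. In the fit on median-subtracted values 4 of the 10 passed adjustment, Acta1, Myh1, Myh2 and Mylpf. The same fit also called 4 of 11 hair and epidermis markers, Krt33a, Krt35, Krtap8-1 and Tchh, each highest in TNKO tumour 3. It called 3 of 7 adipocyte markers as well, Adipoq, Fabp4 and Lpl. In the main fit 0 markers of these lists had an unadjusted p under 0.05 by limma. The fit on median-subtracted values gave probe sets of unlike spread nearly the same error. Its calls therefore follow the size of a difference, not the spread between tumours. Krtap8-1 and Myh1 had SDs of 3.77 and 1.67 in TNKO tumours, with unadjusted p of 0.328 and 0.141 by limma in the main fit. These correlations are over 6 arrays and were picked as the highest of many, so they are descriptions, and the part of fibroblast, endothelial, fat or muscle content in Mmp2 and Mmp13 was not tested.

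Of the other MMP genes, 8 of 13 listed had a named probe set, and 2 were lower and 6 higher in the TNKO mean. None passed across all probe sets. At an unadjusted p under 0.05 by limma 1 was lower and 2 were higher, against 1534 lower and 1818 higher of 18193 genes. Mmp1a, a rodent counterpart of interstitial collagenase and a neighbour of Mmp3, differed by -6.43 millionths (SE 6.43e-07 units, -8.07 residual SDs, adjusted p = 0.0607 by limma). Mmp8, the neutrophil collagenase, differed by 18.06 millionths (6.13 residual SDs, adjusted p = 0.0702 by limma), and Mmp20, the tooth enamel enzyme, by 8.79 millionths (3.48 residual SDs, adjusted p = 0.125 by limma). All 3 had groups that did not overlap, as did 2022 lower and 2723 higher of 18193 genes. They were named for the smallest p of their list, as in the lists that follow, which favours groups that lie apart. The hybridisation controls differed by amounts of this size, but all were higher in TNKO tumours, as Mmp8 and Mmp20 were and Mmp1a was not.

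Of the proteases and receptors that activate pro-MMPs, 15 of 15 listed genes were measured, 6 lower and 9 higher, against 42.4% lower over all genes. None passed, and 3 were lower and 2 higher at an unadjusted p under 0.05 by limma, against 1534 and 1818 of 18193 genes. Plau, the urokinase that generates plasmin, stood at 8.26162, 8.26152 and 8.26167 in TNKO tumours, against 8.26195, 8.26192 and 8.26197 in WT tumours. Its groups did not overlap, with a difference of -0.000342 (SE 4.19e-05, -6.23 residual SDs, adjusted p = 0.0702 by limma). Plaur, its receptor, differed by -0.000514 (SE 0.00011, -3.56 residual SDs, adjusted p = 0.122 by limma), again with no overlap, and the neutrophil elastase gene Elane by 3.47 millionths (adjusted p = 0.132 by limma).

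Of the MMP inhibitors 6 of 6 were measured, 2 lower and 4 higher, and 0 passed. Timp4 differed by 24.98 millionths (2.35 residual SDs, unadjusted p = 0.0309, adjusted p = 0.204 by limma) with no overlap, Timp2 by -17.31 millionths (adjusted p = 0.424 by limma) and the plasma protease inhibitor A2m by 4.84 millionths (adjusted p = 0.461 by limma). Among inducers of MMP genes, 18 of 20 listed were measured and 13 of the 18 were lower, 2 at an unadjusted p under 0.05 by limma and 0 past adjustment. Over all 18193 genes 42.4% were lower, and 1534 genes were lower at that p. Etv5, an ETS factor, differed by -51.73 millionths (adjusted p = 0.0998 by limma), Bsg, which encodes the MMP inducer basigin, by -65.14 millionths (adjusted p = 0.119 by limma), and Jund, an AP-1 subunit, by -33.47 millionths (adjusted p = 0.249 by limma). In these 3 of the 18 genes, named for the smallest p, all TNKO values lay below all WT values, as in 2022 of 18193 genes. Of the matrix substrates 16 of 19 were measured, 7 lower and 9 higher, with 3 lower at an unadjusted p under 0.05, against 1534 of 18193 genes, and 0 past adjustment. Besides Tnc these were Dcn, decorin, at -45.74 millionths (adjusted p = 0.104 by limma) and Fn1, fibronectin, at -1.03 millionths (adjusted p = 0.239 by limma). With quantile normalization and with array medians subtracted all 8 other MMP genes, all 6 inhibitors and all 18 inducers were lower in the TNKO mean, as were 14 and 15 of the 15 activating proteases, 8 and 14 of the 16 matrix substrates and 97.7% and 98.7% of all genes, so the directions of these lists depend on the scaling. Of these lists 1 gene passed adjustment under either scaling, Tnc, with array medians subtracted. Calls in that fit follow the size of a difference, not the spread between tumours.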

How the data were processed

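Each array was hybridised with biotin-labelled RNA amplified by 3' in vitro transcription from 100 ng, per the labels' protocols. The deposited table holds 1 value for each of 45101 Affymetrix probe sets and 6 arrays, taken as log2 from its range. The authors normalized these values, and the submitters' processing notes name R 2.7.2. How probes were summarized and normalized, and the base of the log, is not given in the sources used here. Precision is limited by the number of arrays, which carry no read depth. Tests ran over 45037 probe sets, without 64 controls. Symbols came from the 2016 platform annotation; 34945 probe sets had 1 symbol, 932 several and 9160 none. A gene of several probe sets was read from the brightest.

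TNKO minus WT was fitted with limma 3.58.1 in R 4.3.3 (lmFit, eBayes, two-sided, Benjamini-Hochberg over 45037 probe sets, threshold 0.05), with no batch label to use. The p-values of the main fit measure the spread between these 3 tumours per host. With array medians subtracted, limma gave probe sets of unlike spread nearly the same error, so those p-values do not. Correlations over arrays used exact permutations and Benjamini-Hochberg adjustment over pairs. The procedure was tested on simulated data. Named were all member probe sets, up to 3 genes of each other list by unadjusted p (for marker lists, those beside a result), the 5 nearest genes to each of 2 members, Tnc and the control probe sets. Lcn2, Dpt, Lum, Krt10, Krt1, Lor, Flg and the muscle, hair and adipocyte markers called after subtraction of medians were named after their values were seen. Members and lists were chosen with earlier results of these data known. Promoters and gene order came from RefSeq (GRCm38.p6), whose coordinates are those of that build; the array files name none. Replicate numbers were not taken as pairs: deviations of TNKO and WT tumours of the same number correlated at 0.029, -0.016 and 0.005 over probe sets. The alternatives were other scalings, moderation settings, array weights, a filter on dim probe sets, an offset of 16, a replicate block, probe set means and leaving out each array.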

Additional observations from a re-analysis of the deposited data

How the results depend on the processing

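In each of the 15 alternative fits over all probe sets, and with probe sets averaged, 0 MMP probe sets were called. The unadjusted p was under 0.05 in 0 of them with array medians subtracted and in 5 with the replicate block, which changed no MMP call. The fit with array medians subtracted could not call differences as small as those of the MMP probe sets, since its error was nearly the same for all. Even Mmp13, at -0.00324, had an unadjusted p of 0.898 by limma there. That fit therefore says nothing on the MMP calls. Mmp3, Mmp10, Mmp13, both Mmp2 probe sets, 2 of the 3 Mmp14 probe sets and the brighter Mmp19 probe set kept their sign in every alternative run. Over all probe sets the count of 79 was 0 with quantile normalization (591 at an unadjusted p under 0.05), 2 without moderation, 285 of 22518 with only probe sets above the median and 0 with the replicate block (7816 at an unadjusted p under 0.05), and 0 to 73 with each array left out. It was 0 without WT tumour 1 or 3, 1 without TNKO tumour 1, 4 without TNKO tumour 2 and 6 without TNKO tumour 3. The median of the tested probe sets was 6.5698 in TNKO tumour 3, above the 6.5674 to 6.56758 of the other tumours. With array medians subtracted 13 of the 15 MMP probe sets were lower, with quantile normalization 12 and with each array left out 8 to 11. The median difference of all probe sets moved to -0.000764 and -0.000538 under those scalings, and the signs that turned follow that shift: Mmp7 became -0.000763 and -0.000511, Mmp9 -0.00076 and -0.000258 in the brighter and -0.000761 and -0.00049 in the dimmer probe set, and Mmp11 -0.000763 and -0.000532, while Mmp12 turned to -5.45e-06 with medians subtracted only. Leaving out 1 array turned Mmp7 (-3.61e-07 to 1.69e-06), Mmp9 (brighter -4.26e-06 to 1.34e-05, dimmer -2.36e-06 to 5.6e-06), Mmp11 (-2.75e-06 to 5.76e-06), Mmp12 (-2.31e-05 to 0.00125), the middle Mmp14 probe set (-1.29e-05 to 1.35e-06) and the dimmer Mmp19 probe set (-3.4e-05 to 5.3e-07). For Mmp3 the adjusted p by limma ran from 0.17 to 0.99, the latter with array medians subtracted, and was at most 0.588 in the other alternatives. The cause of the changed counts was not tested.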
